A study of Mus musculus with 4 samples.

Results

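Polycomb repressive complex 2 (PRC2) and the deacetylase *Hdac1* were followed in single cells of fetal mouse leg muscle. The 10 genes were *Ezh2*, *Ezh1*, *Eed*, *Suz12*, *Rbbp4*, *Rbbp7*, *Phf19*, *Aebp2*, *Jarid2* and *Hdac1*, chosen by symbol among the 32285 features counted because EZH2 is the reported protein partner of the long non-coding RNA *SYISL*. Their unique molecular identifiers (UMIs) were read across marker-defined cell types, cycling and non-cycling cells and myogenic stages. Cells came from leg muscles of E18.5 fetuses of 1 litter, either wild type (WT) or with a knockout (KO) of *SYISL*, which lies within *Synpo2*. Each genotype had 2 libraries, called biological replicates by the submitters. No treatment was applied to either group. Heterozygous parents gave both genotypes, and the number of fetuses in a library was not given in the sources used here.

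PRC2 is the enzyme complex that methylates lysine 27 of histone H3, a mark found at repressed genes. EZH2 and EZH1 are alternative catalytic subunits, which need EED and SUZ12 for activity, and EZH2 is known as the form of dividing cells. In muscle progenitors EZH2 is known for holding muscle genes silent until differentiation, and HDAC1 removes acetyl groups from histones in separate co-repressor complexes that share RBBP4 and RBBP7 with PRC2.

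The catalytic genes were *Ezh2* (chr6:47530139-47595341, minus strand) and *Ezh1* (chr11:101191115-101226463, minus strand), in GRCm38 coordinates. The core genes were *Eed* (chr7:89954654-89980983, minus strand), which encodes the reader of the methylated histone, and *Suz12* (chr11:79993106-80034123, plus strand), which holds the complex together. The histone chaperone genes were *Rbbp4* (chr4:129307100-129335370, minus strand) and *Rbbp7* (chrX:162760402-162779092, plus strand). The accessory genes were *Phf19* (chr2:34893757-34914026, minus strand), which encodes a Polycomb-like recruitment factor, *Aebp2* (chr6:140622663-140678472, plus strand) and *Jarid2* (chr13:44729474-44921643, plus strand), whose proteins define another form of PRC2. *Hdac1* lies at chr4:129516104-129542713 on the minus strand, and all 10 genes are annotated as protein-coding.

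Promoters are shown for 3 genes that were higher in cycling cells and for *Ezh1*, which was lower. E2F transcription factors control many cell cycle genes, and 4 E2F words (TTTCCCGC, TTTCGCGC, TTTGCCGC and TTTGGCGC) were searched on both strands of each RefSeq promoter of GRCm38.p6, from 250 bases before to 50 after the start. Of 32851 promoters 2.26% held a word, as did 3 of 12 promoters of the 9 members with an entry, those of the 3 rising genes shown. *Eed*, *Rbbp4*, *Rbbp7* and *Aebp2*, which were also higher in cycling cells, and *Jarid2*, which was lower, held no word. *Hdac1* had no entry. Capitals mark the word, or its reverse complement in *Phf19*, and the *Ezh1* stretch has none. The windows are chr6:47595001-47595150 (minus strand) for *Ezh2*, chr11:79992856-79992915 (plus) for *Suz12*, chr2:34914167-34914226 (minus) for *Phf19* and chr11:101226434-101226583 (minus) for *Ezh1*.
Ezh2: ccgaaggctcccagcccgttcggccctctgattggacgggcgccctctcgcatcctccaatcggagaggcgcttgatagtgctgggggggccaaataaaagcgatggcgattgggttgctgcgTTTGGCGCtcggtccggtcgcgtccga
Suz12: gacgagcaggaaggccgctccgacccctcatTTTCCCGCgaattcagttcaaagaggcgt
Phf19: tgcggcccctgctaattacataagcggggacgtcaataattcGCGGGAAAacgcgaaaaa
Ezh1: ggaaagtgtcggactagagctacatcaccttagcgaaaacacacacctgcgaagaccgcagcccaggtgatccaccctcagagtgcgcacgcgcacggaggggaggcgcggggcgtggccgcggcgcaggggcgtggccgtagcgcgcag

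Other cell cycle promoter words were more common among all promoters. The CHR words TTTGAA and TTCGAA were in 19.2% of all promoters and in 3 of 12 member promoters (*Aebp2*, *Eed* and *Suz12*). CCAAT was in 37.4% of all promoters and in 8 of 12 member promoters, from 7 of the 9 genes. A match is a description of these letters and was not tested as a binding site.

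The 4 libraries held between 109653824 and 126257094 UMIs in 9528 to 11670 barcodes. Of 41741 barcodes 36969 passed the filters, and pairs of libraries shared 21 to 41 barcode sequences. By markers 10 classes were named, among them 18819 fibro-adipogenic progenitor-like (FAP-like) cells and 6736 myogenic-like cells (1478 and 1314 in WT, 2039 and 1905 in KO), so the muscle lineage of the labelled tissue was present, with 81 myotube-like cells in all. A cluster of 322 cells with *Pax7* among its leading genes also held FAP markers and stayed unnamed (52 and 35 cells in WT, 115 and 120 in KO). It is in no myogenic comparison. Another unnamed cluster of 134 cells came mostly from KO replicate 2 (127 cells). No feature is named *SYISL*, so the knockout could not be checked. KO replicate 2 stood apart by sex genes, with *Xist* at 1294.4 per-million counts (CPM) in myogenic-like cells against 0 in the other 3 libraries. Values of 4 libraries are always given in the order WT replicate 1, WT replicate 2, KO replicate 1, KO replicate 2, in CPM of the summed UMIs of the cells named.

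Cycling myogenic-like cells carried more message for most of PRC2. *Phf19* passed the filter on low counts only through the cycling cells and is described without a test. Of the other 9 genes 7 rose and 2 fell against non-cycling cells of the same libraries, where 56.7% of 13681 genes tested were called, with 27.9% higher and 28.8% lower. The catalytic pair moved in opposite directions, as did the accessory genes. Cells were called cycling where 95 S and G2M genes, none of them one of the 10, summed to 63 or more per 10000 UMIs, which gave 2938 cycling and 3798 non-cycling myogenic-like cells. The non-cycling cells included 883 myoblast-like and 77 myotube-like cells, the later stages, whereas only 29 myoblast-like cells were cycling. Cycling state and stage were therefore partly mixed, and the part of stage in these differences was not tested. The members were also left out of the genes used for clustering.

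*Ezh2* stood at 428, 417, 438 and 386 CPM in cycling cells and at 122, 126, 135 and 125 CPM in non-cycling cells. The lowest cycling library lay well above the highest non-cycling library. The difference was 1.71 ± 0.03 on the log2 scale (SE, 95% interval 1.64 to 1.78), a 3.27-fold rise (adjusted p = 8.86e-20, edgeR quasi-likelihood test, Benjamini-Hochberg method across the whole table).

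*Ezh1*, the other catalytic gene, stood at 8.48, 11.2, 9.98 and 8.47 CPM in cycling cells and at 17.7, 14.6, 15.8 and 11.5 CPM in non-cycling cells. Every non-cycling library was above every cycling one, with KO replicate 2 the lowest of its state in both. *Ezh1* fell by 0.64 ± 0.12 on the log2 scale (95% interval -0.89 to -0.4, edgeR adjusted p = 9.75e-05).

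*Suz12* measured 195, 205, 193 and 180 CPM in cycling cells against 93.7, 103, 93.6 and 96.3 CPM in non-cycling cells, with no overlap. It rose 1.99-fold, or 0.99 ± 0.04 on the log2 scale (edgeR adjusted p = 6.65e-15). *Eed* measured 101, 94.2, 101 and 91.9 CPM against 63.3, 60.5, 59.0 and 63.0 CPM. The libraries of both states were apart again, and *Eed* rose by 0.65 ± 0.05 on the log2 scale (edgeR adjusted p = 3.79e-10). Both core genes moved with *Ezh2* but by smaller steps.

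The chaperone genes showed smaller differences. *Rbbp4* measured 340, 344, 370 and 339 CPM in cycling cells and 219, 242, 223 and 239 CPM in non-cycling cells, higher by 0.59 ± 0.04 on the log2 scale (edgeR adjusted p = 1.34e-11). *Rbbp7* measured 382, 407, 390 and 420 CPM against 299, 312, 291 and 314 CPM, a rise of 0.39 ± 0.03 (log2, edgeR adjusted p = 1.63e-10). Neither gene had overlapping states, and KO replicate 2 was the highest library for the X-linked *Rbbp7* in both states.

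Among the accessory genes *Phf19* had the lowest counts. Its UMIs numbered 47, 42, 69 and 56 in cycling cells and 9, 3, 11 and 5 in non-cycling cells, or 6.04, 5.48, 7.1 and 5.21 CPM against 1.12, 0.374, 1.16 and 0.556 CPM. The libraries of the 2 states did not overlap, and the fitted log2 difference of 2.86 is a description. *Aebp2* showed the smallest rise of the 7, at 86.6, 96.8, 88.8 and 83.4 CPM against 76.8, 74.1, 76.9 and 75.2 CPM, or 0.22 ± 0.05 on the log2 scale (edgeR adjusted p = 0.000729). Its cycling libraries overlapped those of non-cycling progenitor-like cells, whose levels are given with the stages below.

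*Jarid2* went the other way. It measured 43.3, 42.7, 43.9 and 41.5 CPM in cycling cells and 68.2, 73.2, 66.5 and 63.1 CPM in non-cycling cells, without overlap. It fell by 0.67 ± 0.05 on the log2 scale (95% interval -0.77 to -0.56, edgeR adjusted p = 1.07e-09). *Hdac1* measured 80.2, 93.3, 86.9 and 85.4 CPM in cycling cells and 57.4, 62.4, 61.5 and 60.4 CPM in non-cycling cells. The cycling libraries were all higher, by 0.51 ± 0.05 on the log2 scale (edgeR adjusted p = 1.16e-08).

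**Figure D1:**
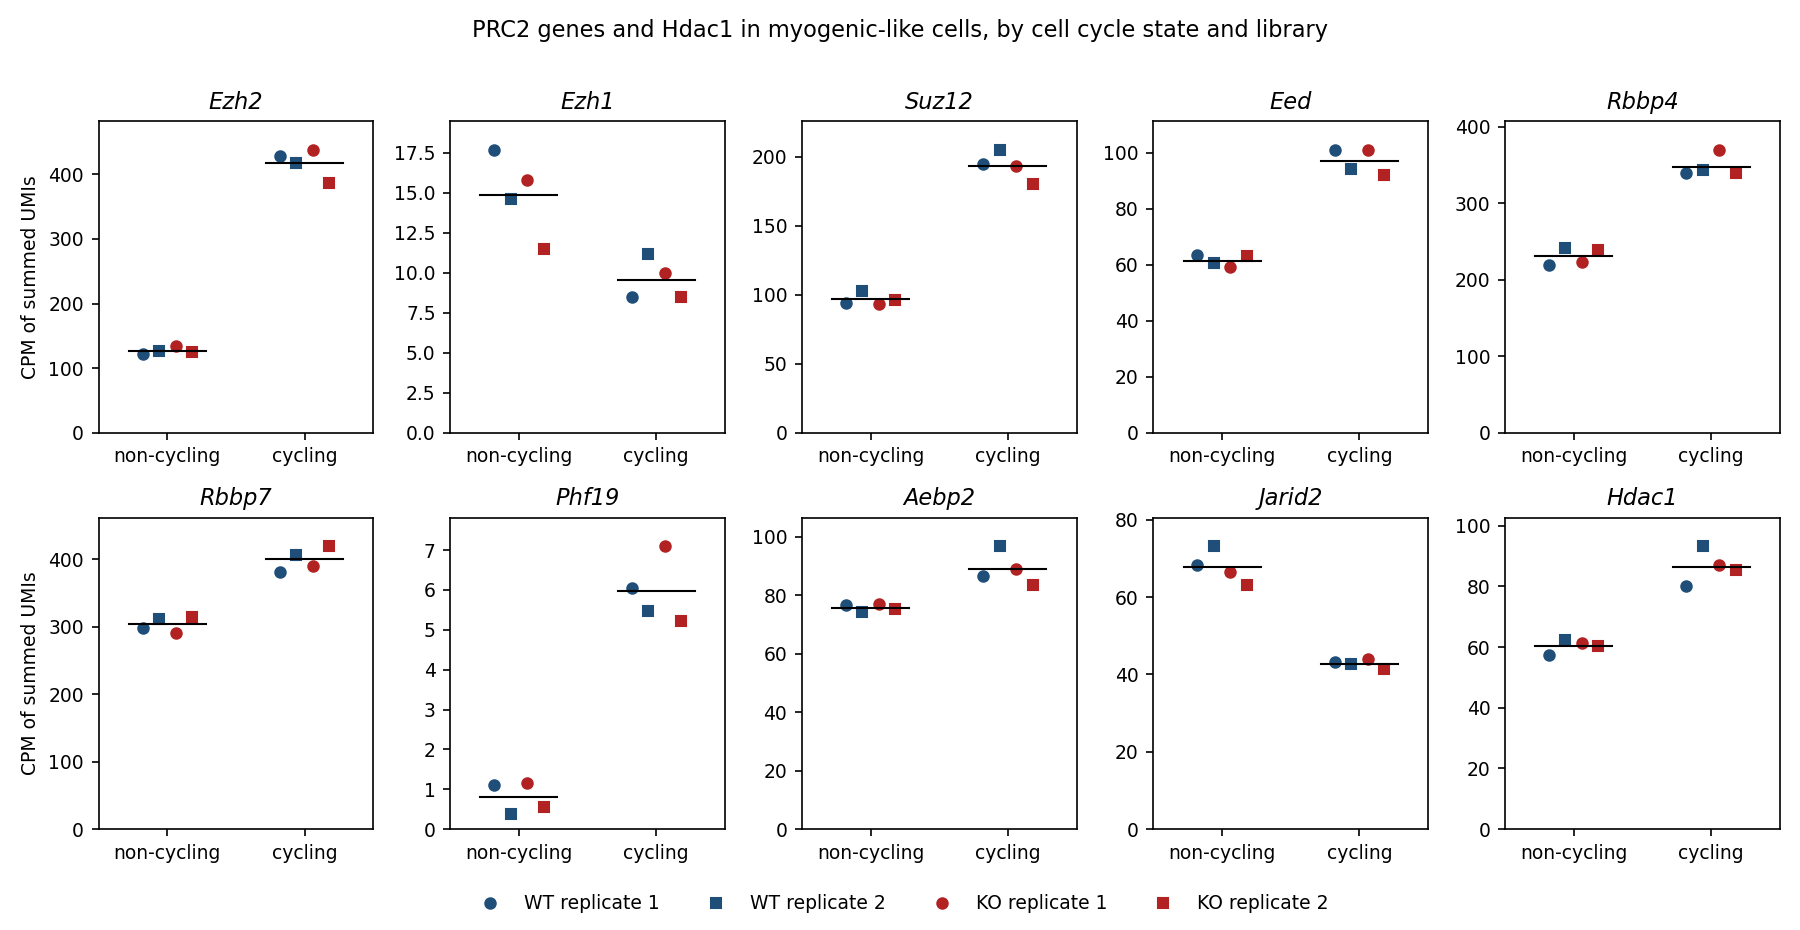
CPM of summed UMIs (vertical axes, from 0) of the 10 genes in non-cycling and cycling myogenic-like cells, with 1 point per library (circles replicate 1, squares replicate 2, blue WT, red KO) and a line at the mean of 4 libraries. *Ezh2* cycling points lie between 386 and 438 CPM and non-cycling points between 122 and 135 CPM, whereas *Ezh1* and *Jarid2* points are lower in cycling cells.

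Depth moved with the state. Median UMIs per cell were 12629, 14213, 10747.5 and 11664 in cycling and 8978, 10038, 7787 and 8576 in non-cycling myogenic-like cells. In 1 alternative, called thinned below, the cycling call was made from cycle list counts thinned to 3000 UMIs per cell. Cells with fewer UMIs were left out. The log2 difference was then 1.67 for *Ezh2*, 2.78 for *Phf19*, -0.66 for *Ezh1* and -0.7 for *Jarid2*. All UMIs of the cells were still summed, so depth was evened for the cycling call only and not for these values. With the 13.0% of cells within 0.5 log2 of the cycling cut left out it was 1.99 for *Ezh2*, 3.44 for *Phf19*, -0.71 for *Ezh1* and -0.8 for *Jarid2*.

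Related chromatin genes were counted in the same comparison, from lists that could include genes used for clustering. Of 5 other PRC2 genes tested, 2 rose, namely *Lcorl* (log2 difference 1.23) and *Mtf2*, a Polycomb-like gene (0.58), and none fell. Of 20 genes of PRC1, the complex that binds the methylated histone, 6 rose and 3 fell, a smaller share than the 56.7% of all genes called, with *Cbx2* at 1.71 and *Cbx6* at 0.73. Of 17 partners of *Hdac1*, *Rbbp4* or *Rbbp7* 10 rose and 5 fell. The chromatin assembly genes *Chaf1b* and *Chaf1a*, whose products bind RBBP4, had log2 differences of 2.29 and 1.92, and the co-repressor genes *Sap30* and *Sin3a* of 1.19 and 0.64.

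Of 10 other deacetylases 3 rose and 2 fell, with *Hdac2*, the close relative of *Hdac1*, at a log2 difference of 0.26, *Hdac3* at 0.36 and *Hdac11* at -1.25. Of the 3 genes for H3K27 demethylases, which remove the PRC2 mark, 2 fell, with *Kdm6b* at -0.48, and *Kdm6a* had a value of -0.01 (edgeR adjusted p = 0.899). The median log2 difference was -0.02 over the other PRC2 genes, 0.07 over PRC1 genes, 0.16 over the other deacetylases and 0.17 over the partners, beside -0.01 over all genes tested.

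FAP-like cells, the connective tissue progenitors, showed the same split in direction. Of the 10 genes 8 rose and 2 fell between 14962 non-cycling and 3857 cycling cells, where 52.2% of 17552 genes tested were called, with 26.3% higher and 25.9% lower. *Ezh2* measured 249, 259, 256 and 242 CPM in cycling and 91.8, 114, 102 and 106 CPM in non-cycling FAP-like cells. No cycling library overlapped a non-cycling one, and *Ezh2* rose by 1.3 ± 0.03 on the log2 scale (edgeR adjusted p = 8.14e-16).

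*Suz12* rose by 0.98 ± 0.03, *Rbbp4* by 0.59 ± 0.03, *Hdac1* by 0.47 ± 0.03, *Eed* by 0.46 ± 0.04 and *Rbbp7* by 0.24 ± 0.03 on the log2 scale in FAP-like cells. *Phf19* measured 20.4, 16.6, 20.1 and 18.0 CPM against 5.1, 6.22, 6.04 and 5.84 CPM, and rose by 1.69 ± 0.09 on the log2 scale (edgeR adjusted p = 1.09e-11). *Jarid2* fell by 0.47 ± 0.04 and *Ezh1* by 0.71 ± 0.07 on the log2 scale. *Aebp2* rose by only 0.1 ± 0.03 (edgeR adjusted p = 0.0224), a call that was lost in 8 of 14 alternatives.

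The size of the cycling difference itself differed between the lineages for 2 of the 9 genes other than *Phf19*, where 26.8% of 15642 genes differed (9.53% upward and 17.3% downward in myogenic-like cells). *Ezh2* differed by 0.37 ± 0.07 more in myogenic-like cells on the log2 scale (95% interval 0.24 to 0.51, edgeR adjusted p = 0.000235). For *Phf19*, described without a test for the reason above, the fitted value was 1.13 and fell to 0.67 when cells were called cycling from *Mki67* and *Top2a* alone. The fall of *Jarid2* was larger in myogenic-like cells by 0.23 ± 0.07 (difference -0.23, edgeR adjusted p = 0.0196), but without WT replicate 2 the value was -0.09 (edgeR adjusted p = 0.508). The non-cycling myogenic-like cells included myoblast-like cells, where *Ezh2* was lower and *Jarid2* higher than in progenitor-like cells (below). The part of this mix of stages in both values was not tested. For the other 7 genes the difference did not pass the test, with values from -0.05 for *Rbbp4* (95% interval -0.17 to 0.08) to 0.15 for *Eed* (0.01 to 0.29).

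**Figure D2:**
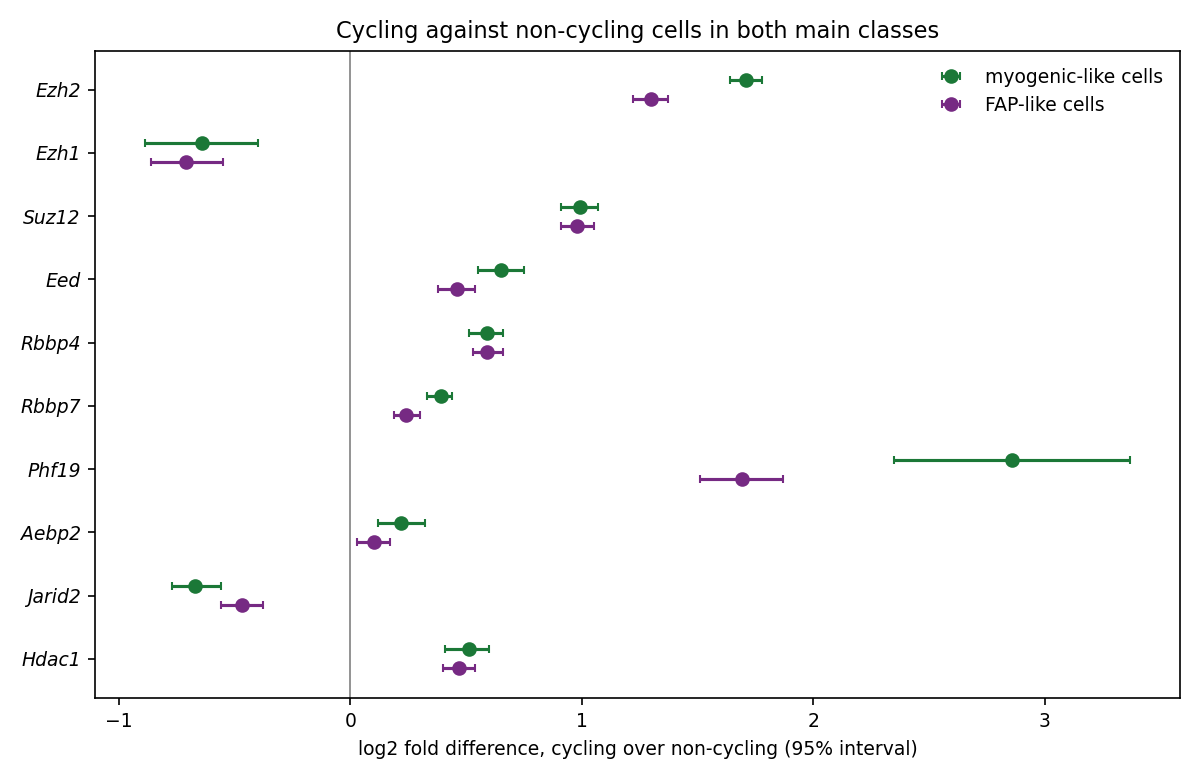
Log2 fold difference of cycling over non-cycling cells (horizontal axis) for each of the 10 genes in myogenic-like (green) and FAP-like (purple) cells, with bars for the 95% interval of the edgeR fit. *Ezh2* is at 1.71 and 1.3 and *Phf19*, untested in myogenic-like cells, at 2.86 and 1.69, while *Ezh1* and *Jarid2* lie left of 0 in both lineages.

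The cycling difference was then read in each of 8 classes with at least 20 cycling cells in every library, as a description. *Ezh2*, *Suz12*, *Rbbp4* and *Phf19* were higher in cycling cells of all 4 libraries in 8 of 8 classes, and *Jarid2* was lower in 8 of 8, all without overlap between the states. The share of all genes without overlap was not counted by class, and the tests called 56.7% of genes in myogenic-like and 52.2% in FAP-like cells. *Phf19* was near the floor, with 0.284 CPM in WT replicate 1 of non-cycling smooth muscle or pericyte-like cells, a class where its folds ran from 2.08 to 31.2. The geometric mean fold of *Ezh2* ran from 2.26 in smooth muscle or pericyte-like cells to 4.78 in macrophage-like cells, where the levels were 244, 213, 190 and 232 CPM against 46.6, 41.9, 53.8 and 41.8 CPM. *Suz12* folds were closer together, from 1.68 to 2.0, and *Jarid2* folds ran from 0.57 to 0.814.

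*Hdac1* was also higher in all 4 libraries in 8 of 8 classes, with folds of 1.16 to 1.58 and no overlap in 6. *Ezh1* was lower in all 4 libraries in only 2 of 8 classes, with folds from 0.554 in chondrocyte-like to 1.23 in macrophage-like cells. Its cycling macrophage-like levels of 27.3, 23.2, 15.4 and 11.9 CPM overlapped the non-cycling levels of 16.9, 13.3, 12.6 and 18.0 CPM.

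Within cycling myogenic-like cells, 1664 leaned to S phase and 1274 to G2M by the 2 parts of the cycle list. Of the 10 genes 1 was higher and 5 were lower in G2M-leaning cells, where 41.2% of 12202 genes tested were called, with 20.1% higher and 21.1% lower. *Jarid2* measured 36.1, 28.8, 24.9 and 29.5 CPM in S-leaning and 51.3, 59.5, 66.4 and 54.5 CPM in G2M-leaning cells. All G2M-leaning libraries were above all S-leaning ones, and the difference was 0.96 ± 0.1 on the log2 scale (95% interval 0.75 to 1.16, edgeR adjusted p = 3.77e-09).

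*Ezh2* measured 458, 446, 485 and 416 CPM in S-leaning and 396, 381, 382 and 353 CPM in G2M-leaning cells. It was lower in G2M-leaning cells without overlap, with a log2 difference of -0.27 ± 0.03 (edgeR adjusted p = 1.86e-07), and remained far above the non-cycling level in both. *Suz12* and *Eed* had differences of -0.33, and *Rbbp4* of -0.27. *Rbbp7* had a difference of -0.1 (edgeR adjusted p = 0.0218) that was lost in 5 of 14 alternatives. *Phf19* (-0.36, 95% interval -0.8 to 0.08), *Hdac1* (-0.01, -0.14 to 0.11), *Ezh1* (0.00, -0.33 to 0.32) and *Aebp2* (0.00, -0.12 to 0.12) did not pass the test.

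The ratio of *Ezh2* to *Ezh1* UMIs puts both catalytic genes in 1 value. Its absolute size depends on transcript length and capture, so only its change between cells is read. In myogenic-like cells the ratio was 50.5, 37.1, 43.9 and 45.6 when cycling and 6.85, 8.62, 8.52 and 10.9 when not, with geometric means of 44.0 and 8.61. The states did not overlap. FAP-like cells moved from 5.64 to 22.7, glial-like cells from 14.0 to 60.9, macrophage-like cells from 3.05 to 11.8 and endothelial-like cells from 2.58 to 9.15 (geometric means, non-cycling and cycling). Among non-cycling myogenic-like cells the ratio was 6.3, 10.6, 9.36 and 13.8 in progenitor-like cells and 6.21, 5.33, 5.33 and 5.42 in myoblast-like cells. Those ranges were apart, though narrowly in WT replicate 1.

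Stages were compared outside the cell cycle, between 2355 progenitor-like cells and 883 myoblast-like cells, the committed cells that express *Myog*. Of 9 genes tested 5 fell and 1 rose with the step to myoblast-like cells, where 66.6% of 11752 genes were called, with 34.1% lower and 32.4% higher. The stages were built from other genes of the same cells, so the test describes how cells sorted by those genes differ.

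*Ezh2* measured 141, 161, 165 and 164 CPM in progenitor-like and 79.8, 69.6, 76.3 and 66.9 CPM in myoblast-like cells. The stages were clearly apart, and *Ezh2* fell by 0.96 ± 0.08 on the log2 scale (95% interval -1.12 to -0.8, edgeR adjusted p = 1e-10), to 0.513 of the progenitor-like level. *Ezh1* measured 22.4, 15.2, 17.6 and 11.9 CPM against 12.9, 13.1, 14.3 and 12.3 CPM. Its stages overlapped, with a log2 difference of -0.18 (95% interval -0.51 to 0.14, edgeR adjusted p = 0.315).

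*Jarid2* measured 60.2, 55.6, 55.3 and 53.3 CPM in progenitor-like and 88.3, 96.2, 86.4 and 84.9 CPM in myoblast-like cells. It was the single member higher in myoblast-like cells, in all 4 libraries, by 0.81 ± 0.08 on the log2 scale (edgeR adjusted p = 3.19e-09). *Rbbp7* measured 335, 357, 336 and 375 CPM against 230, 233, 205 and 214 CPM, and fell by 0.52 ± 0.05 on the log2 scale (edgeR adjusted p = 7.06e-09).

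*Aebp2* measured 88.9, 85.2, 89.5 and 94.7 CPM against 54.6, 57.0, 49.5 and 48.6 CPM, and fell by 0.63 ± 0.09 on the log2 scale (edgeR adjusted p = 8.33e-07). *Eed* fell by 0.38 ± 0.09 (edgeR adjusted p = 0.00105). *Hdac1* fell by 0.21 ± 0.09 (edgeR adjusted p = 0.0357), a call lost in 8 of 15 alternatives, with -0.04 at cluster resolution 1. *Suz12* measured 96.5, 107, 96.7 and 97.4 CPM against 96.2, 94.2, 88.5 and 98.3 CPM, with overlapping stages and a fitted log2 difference of 0.07 (95% interval -0.07 to 0.22) that did not pass. *Rbbp4* likewise did not pass (-0.03, 95% interval -0.14 to 0.08). TMM scaling placed the fitted differences of this comparison above those of the unscaled CPM, where the mean log2 difference was -0.07 for *Suz12*, -0.17 for *Rbbp4*, -0.36 for *Hdac1*, -1.11 for *Ezh2* and 0.66 for *Jarid2*, so the sign for *Suz12* depended on the scaling. *Phf19* had 7, 2, 10 and 3 UMIs against 1, 0, 1 and 0, too few to be tested.

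Residual cycling moved with this step: of 79 cell cycle genes tested 55 were lower and 10 higher in non-cycling myoblast-like cells, with a median log2 difference of -1.17. With cells near the cycling cut left out *Ezh2* had a log2 difference of -0.8 and *Jarid2* of 0.7, and both calls held. The part of residual cycling in these differences was not tested further.

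**Figure D3:**
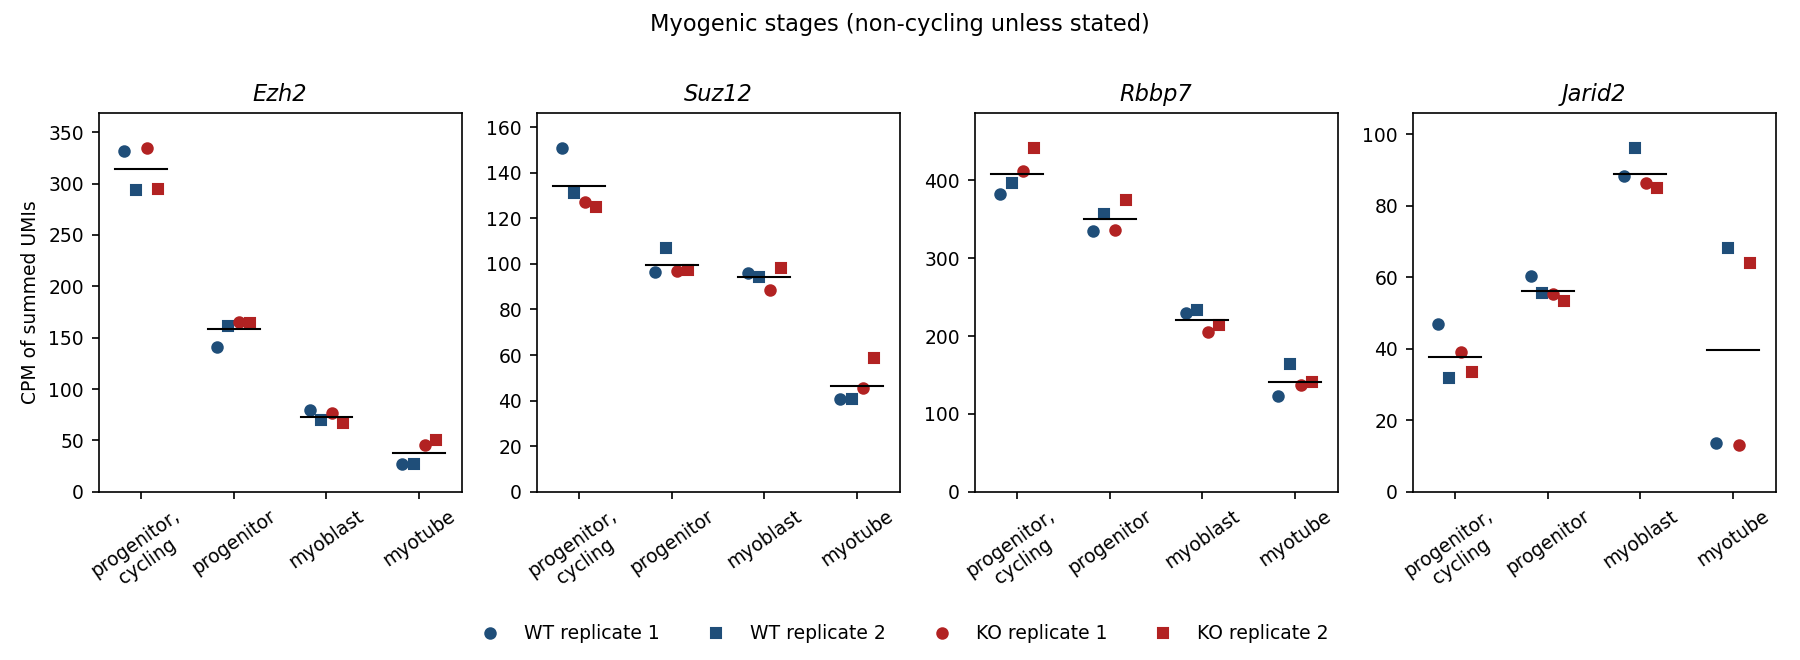
CPM of summed UMIs (vertical axes, from 0) of *Ezh2*, *Suz12*, *Rbbp7* and *Jarid2* in cycling progenitor-like and in non-cycling progenitor-, myoblast- and myotube-like cells, 1 point per library with a line at the mean. *Ezh2* points step from 141 to 165 CPM in progenitor-like to 66.9 to 79.8 CPM in myoblast-like cells, *Jarid2* points rise over that step, and myotube-like points rest on 77 cells.

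Among related genes the shares called were near the 66.6% of all genes called in this comparison. Of 18 PRC1 genes 8 fell and 4 rose, with *Cbx6* at a log2 difference of -4.43, *Phc1* at -1.79 and *Kdm2b* at 1.0. Of 8 other deacetylases 5 fell and 1 rose, the last being *Hdac11* at 2.69, while *Hdac7* was at -2.85 and *Hdac2* at 0.1 (edgeR adjusted p = 0.197). Of 17 partners 8 rose and 4 fell, with *Chd3*, a remodeller of the NuRD complex, at 3.68, *Rcor1* at 1.08, *Kdm1a* at 0.89 and *Chaf1b* at -5.42. Counts by stage are not given for these list genes, and differences as large as those of *Cbx6* and *Chaf1b* are a description. *Kdm6b* fell by 0.33 on the log2 scale, whereas *Kdm6a* had a difference of -0.02 and *Mtf2* of 0.15 (edgeR adjusted p = 0.114). The cell cycle inhibitor gene *Cdkn1a* and the muscle creatine kinase gene *Ckm*, reported targets of *SYISL* and EZH2, rose by 2.74 and 1.22 on the log2 scale. *Ckm* is among the markers used to name the stages, and neither gene was kept out of the clustering. Their rises are therefore a description.

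Against myoblast-like cells, the 77 non-cycling myotube-like cells differed in 1 of 9 genes, where 26.9% of 9342 genes were called, with 12.4% lower and 14.5% higher. *Jarid2*, at 13.6, 68.2, 13.0 and 64.0 CPM, had a difference of -0.95 (edgeR adjusted p = 0.0312), but replicates 1 and 2 of both genotypes were far apart, the call was lost without WT replicate 1 (-0.68, edgeR adjusted p = 0.254) and without KO replicate 1 (-0.67, edgeR adjusted p = 0.289), and it was 0.11 at cluster resolution 1. *Ezh2* had 4, 2, 7 and 19 UMIs there, and its difference of -0.62 (95% interval -1.32 to 0.08) did not pass the test, although with cells near the cycling cut left out it was -0.99 (edgeR adjusted p = 0.0473) and at cluster resolution 1 it was -0.43 (edgeR adjusted p = 0.0069). Unscaled CPM gave a mean log2 difference of -1.01 for *Ezh2* and -1.58 for *Jarid2*, below the fitted values here too. Summed FAP markers in these cells were 1037, 286, 2804.5 and 2033.2 CPM, and their part in the values was not tested.

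Levels were ordered over the non-cycling cells of 8 classes. All 10 genes differed between classes, as did 98.6% of 14904 genes tested (edgeR quasi-likelihood F test), and the order is given as a description. *Ezh2* was highest in myogenic-like cells, with a mean of 127 CPM and libraries from 122 to 135 CPM, followed by glial-like cells at 118 (116 to 120 CPM). Tenocyte-like cells followed at 108 CPM and FAP-like cells at 103 CPM, then smooth muscle or pericyte-like and chondrocyte-like cells both at 87.8 CPM, endothelial-like cells at 60.2 CPM and macrophage-like cells at 46.0 CPM. Of the 7 neighbouring pairs 4 overlapped, namely glial with tenocyte, tenocyte with FAP, smooth muscle with chondrocyte, and endothelial with macrophage. The myogenic-like value joins unlike stages. Taken alone, the myoblast-like libraries given above lay below every smooth muscle or pericyte-like and chondrocyte-like library.

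*Ezh1* had another order. Its highest mean was in endothelial-like cells, at 23.2 CPM (20.8 to 26.7), above FAP-like cells at 18.3 CPM (16.6 to 19.7), and its lowest in glial-like cells at 8.38 CPM (8.08 to 8.57). The 6 classes from FAP-like to tenocyte-like overlapped with their neighbours, with myogenic-like cells at 14.9 CPM among them.

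**Figure D4:**
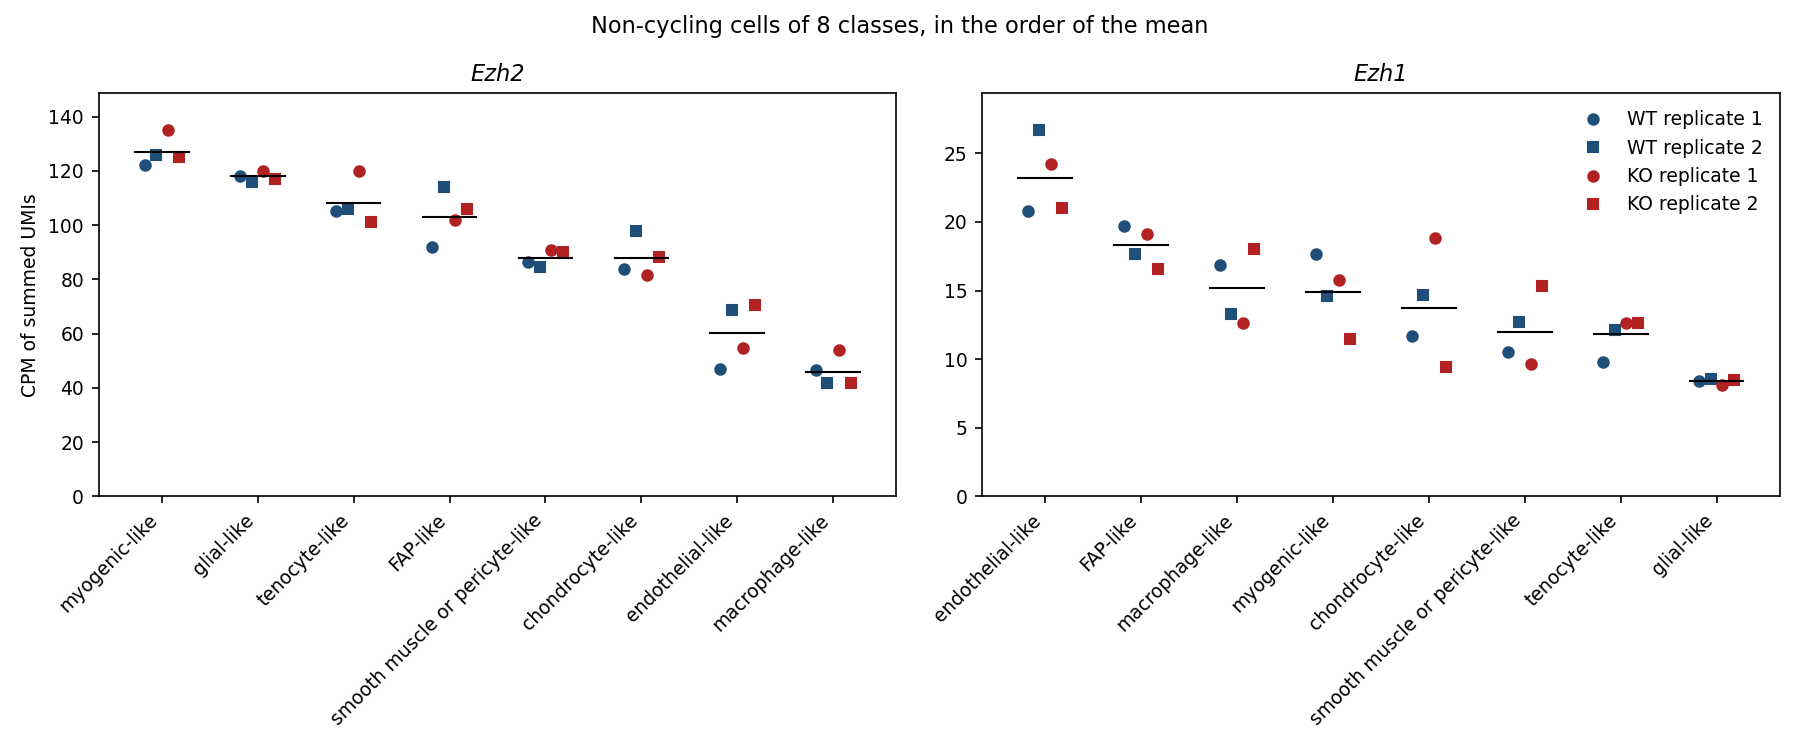
CPM of summed UMIs (vertical axes, from 0) of *Ezh2* and *Ezh1* in non-cycling cells of 8 classes, ordered by the mean of 4 libraries (line), 1 point per library. *Ezh2* descends from 127 CPM in myogenic-like to 46.0 CPM in macrophage-like cells, and *Ezh1* from 23.2 CPM in endothelial-like to 8.38 CPM in glial-like cells.

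*Rbbp7*, *Rbbp4* and *Suz12* shared their top class with *Ezh2*. *Rbbp7* was at 304 CPM in myogenic-like cells (291 to 314), apart from FAP-like cells at 206 to 221 CPM, and lowest in macrophage-like cells at 88.1 CPM. Its myoblast-like libraries, taken alone, overlapped those of FAP-like cells. *Rbbp4* ran from 231 CPM in myogenic-like to 135 CPM in macrophage-like cells, and *Suz12* from 96.6 CPM in myogenic-like to 57.2 CPM in FAP-like cells, but all 7 neighbouring pairs of *Suz12* overlapped.

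*Jarid2* split the classes into a high and a low set. Endothelial-, macrophage-, smooth muscle or pericyte- and glial-like cells had libraries between 111 and 194 CPM, and chondrocyte-, tenocyte-, myogenic- and FAP-like cells between 61.4 and 84.1 CPM. The sets did not overlap. Myoblast-like cells, a part of the myogenic-like class, had libraries between the sets when taken alone. *Phf19* was highest in tenocyte-like cells at 7.64 CPM, overlapping FAP-like cells, and lowest in myogenic-like cells at 0.802 CPM. The myogenic-like libraries (0.374 to 1.16 CPM) overlapped those of endothelial-, smooth muscle or pericyte- and glial-like cells, all at low counts. *Hdac1* was highest in glial-like cells at 103 CPM (97.0 to 108) and lowest in tenocyte-like cells at 59.0 CPM, next to myogenic-like cells at 57.4 to 62.4 CPM.

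The genes with the most similar pattern over 18 units of class by cycling state were named by Pearson correlation of log2(CPM + 1) among 12767 genes, as a description over units that share libraries and depth. For *Ezh2* they were *Orc6* (r = 0.971), *Suv39h1* (0.968), *H2afv* (0.968), *Smc3* (0.963) and *Trim59* (0.962), and r with *Rbbp4* was 0.932, with *Suz12* 0.85 and with *Ezh1* -0.557. For *Ezh1* they were *Txnip* (0.908), *Gse1* (0.824), *Cyth1* (0.815), *Rassf2* (0.813) and *Stat5b* (0.806). For *Hdac1* they were *Tubgcp3* (0.881), *Pcyox1l* (0.881), *Casp2* (0.878), *4930503L19Rik* (0.878) and *Raly* (0.877).

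The comparison of KO with WT asked whether loss of *SYISL* went with another level of the message of its reported partner. In myogenic-like cells none of the 10 genes passed the test, and neither did any of 14713 genes (0.0%, edgeR). Without adjustment, p was under 0.05 for 292 genes that were higher and 250 that were lower, and DESeq2 called 2 genes. *Ezh2* measured 272 and 268 CPM in WT and 289 and 267 CPM in KO. The genotypes overlapped, and the log2 difference of KO over WT was 0.08 (95% interval -0.07 to 0.23), a fold of 0.953 to 1.17.

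*Ezh1* measured 13.2 and 12.9 CPM in WT and 12.9 and 9.83 CPM in KO, a difference of -0.17 (log2, 95% interval -0.5 to 0.17). *Suz12* measured 143 and 153 against 144 and 142 CPM (difference -0.01, 95% interval -0.17 to 0.14), and *Eed* 81.7 and 77.0 against 80.1 and 78.7 CPM (0.04, -0.14 to 0.22). Neither core gene separated the genotypes. *Rbbp4* measured 278 and 292 against 297 and 293 CPM (0.09, -0.05 to 0.24), and *Rbbp7* 340 and 358 against 341 and 372 CPM (0.07, -0.1 to 0.24), or -0.01 without KO replicate 2.

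*Jarid2* measured 56.0 and 58.3 CPM in WT and 55.1 and 51.3 CPM in KO (difference -0.06 on the log2 scale, 95% interval -0.25 to 0.12), and *Aebp2* 81.6 and 85.2 against 82.9 and 79.7 CPM (0.00, -0.16 to 0.17). *Phf19* measured 3.54 and 2.87 against 4.17 and 3.09 CPM, with the widest interval (0.22, -0.34 to 0.77). *Hdac1* measured 68.6 and 77.5 CPM in WT and 74.4 and 74.0 CPM in KO, which overlapped (0.06, -0.13 to 0.26). Before rounding, *Ezh1* and *Jarid2* were lower and *Rbbp4* higher in both KO libraries, 3 of 10 genes beside 33.7% of all genes without overlap (23.0% lower, 10.6% higher). The smallest adjusted p among the 10 genes was 0.963.

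**Figure D5:**
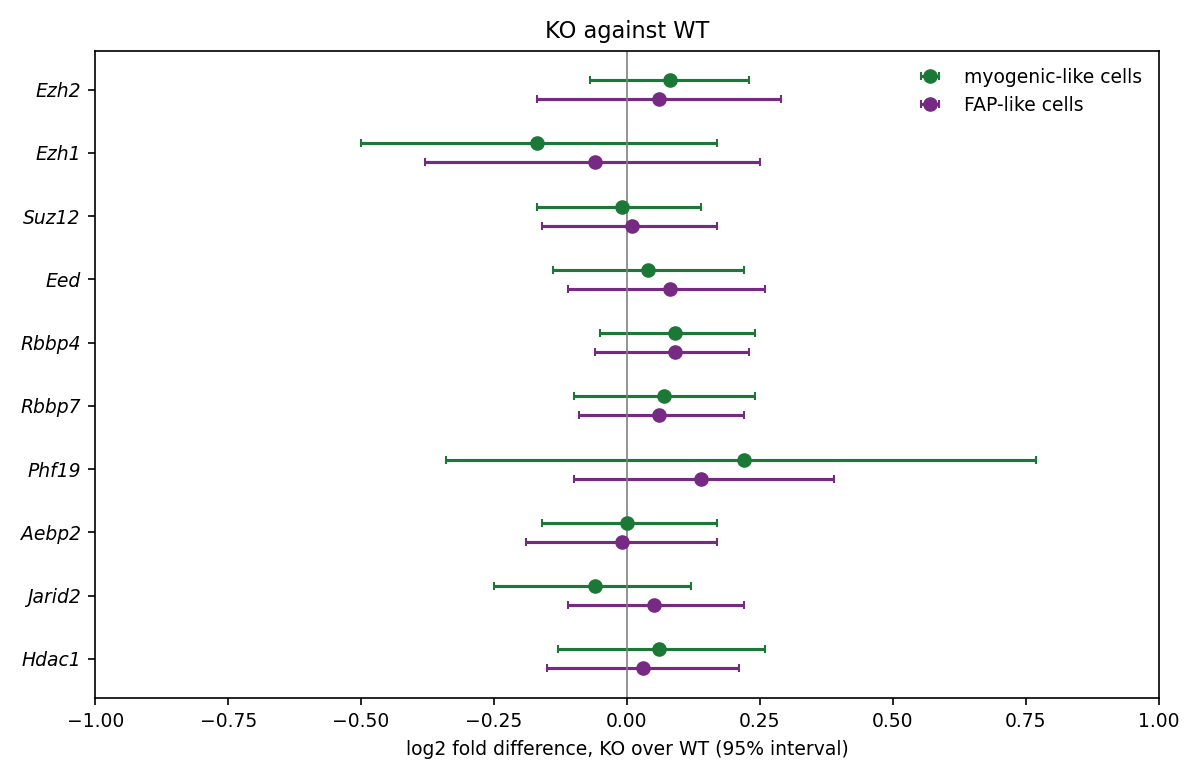
Log2 fold difference of KO over WT (horizontal axis) for the 10 genes in myogenic-like (green) and FAP-like (purple) cells, with bars for the 95% interval of the edgeR fit. Every interval includes 0, and *Ezh2* lies at 0.08 and 0.06.

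FAP-like cells gave the same count, 0 of 10 genes and 0.0% of 18387 genes (without adjustment, p was under 0.05 for 272 higher and 274 lower genes, and DESeq2 called 7), with log2 differences from -0.06 for *Ezh1* to 0.14 for *Phf19* and of 0.06 for *Ezh2* (95% interval -0.17 to 0.29). Both KO libraries were above both WT libraries for *Rbbp4* and *Phf19* there, 2 of 10 genes beside 31.0% of all genes without overlap (8.94% higher, 22.1% lower). Within cycling myogenic-like cells, where 0.0% of 13167 genes passed, *Ezh2* differed by 0.00 (95% interval -0.17 to 0.17) and within non-cycling cells, with 0.0% of 12975 genes, by 0.11 (-0.07 to 0.3). In progenitor-like cells, with 0.0% of 12473 genes, it differed by 0.16 (-0.02 to 0.35), and in myoblast-like cells, with 0.0% of 9947 genes, by -0.03 (-0.31 to 0.25). No member passed in any of these states or reached an unadjusted p under 0.05. That p was reached by 262 genes higher and 249 lower in cycling cells, 266 and 210 in non-cycling, 224 and 229 in progenitor-like and 249 and 267 in myoblast-like cells, and DESeq2 called 1 gene in cycling cells and 0 in the other 3 states.

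The KO difference of *Ezh2* was 0.00 larger in myogenic-like than in FAP-like cells (95% interval -0.23 to 0.24), in a test that called 0.0166% of genes, and -0.12 in cycling minus non-cycling cells (-0.25 to 0.02), in a test that called 0.0365% of genes. The *Ezh2* to *Ezh1* ratio of myogenic-like cells came to 20.6 and 20.7 for WT libraries, against 22.4 and 27.2 for KO libraries. Both KO values were higher, by 0.26 on the log2 scale, and the exact two-sided permutation p was 0.333, the smallest that 2 against 2 libraries allow. Within states the genotypes overlapped, with log2 differences of 0.05 in cycling and 0.33 in non-cycling myogenic-like cells. Other classes had values on both sides of 0. Examples below 0 were -0.27 in tenocyte-like and -1.32 in cycling chondrocyte-like cells, the latter with 23 cells in KO replicate 1. Examples above 0 were 0.4 in macrophage-like and 0.89 in cycling smooth muscle or pericyte-like cells. In 7 further classes no member passed, where 0.0425% of genes did in endothelial-like, 0.0839% in mast-like and 0.135% in smooth muscle or pericyte-like cells and 0.0% in the others. The edgeR log2 differences ran from -0.43 for *Ezh2* to 0.63 for *Jarid2*, both in mast-like cells (95% intervals -0.89 to 0.02 and 0.13 to 1.13, edgeR adjusted p = 0.736 and 0.515). Of 59 and 61 mast-like cells in WT 15 and 11 were cycling, and of 86 and 84 in KO 9 and 10 were. The part of cycling in these mast-like values was not tested.

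Markers of other cell types differed between genotypes in some classes. In myogenic-like cells 10 FAP markers summed to 761 and 670 CPM in the WT libraries and to 878 and 864 CPM in the KO libraries, with 7 of the 10 markers higher in both KO libraries and none at 0. These cells included a sub-cluster of 30 with *Col1a1* and *Dcn* among its leading genes (2 and 2 cells in WT, 11 and 15 in KO). In mast-like cells the sum was 836 and 597 against 2286.9 and 2228.8 CPM, with 10 of 10 higher, and in macrophage-like cells it was 1724.1 and 1553.2 against 2008.1 and 1363.5 CPM, with 0 of 10 higher. FAP markers higher in both KO libraries numbered 10 of 10 in smooth muscle or pericyte-like and 8 of 10 in endothelial-like cells, with none lower. Of 11 myogenic markers 8 were higher in FAP-like and 7 in endothelial-like cells, with none lower, and 3 were higher and 1 lower in smooth muscle or pericyte-like cells. Summed myogenic markers in mast-like cells were 103 and 59.4 against 92.3 and 28.0 CPM. Their part in the KO values was not tested. *Kdm6a*, an X-linked demethylase gene, measured 103, 111, 95.7 and 154 CPM in myogenic-like cells, with only KO replicate 2, the library with *Xist*, apart from the others. Of the reported targets *Cdkn1a* measured 166 and 157 CPM in WT and 200 and 165 CPM in KO (log2 difference 0.21 ± 0.09, edgeR adjusted p = 0.963), *Myog* 737 and 858 against 873 and 796 CPM (0.11 ± 0.08, edgeR adjusted p = 0.963) and *Ckm* 40.9 and 27.9 against 33.2 and 55.6 CPM (0.41 ± 0.25, edgeR adjusted p = 0.963).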

How the data were processed

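Single-cell RNA sequencing was analysed from 4 libraries (2 WT, 2 KO). The authors aligned reads to mm10 with Cell Ranger 7.2.0 (per the submitters' notes) and deposited matrices of UMI counts without normalization. If intronic reads were counted, unspliced transcripts are included; this setting was not given in the sources used here. Barcodes passed with 1000 to 6000 genes detected, a total of 1000 to 25000 UMIs and a mitochondrial share under 8%, 8515 and 8177 in WT and 9816 and 10461 in KO. No doublet caller was applied in the main setting. Cells were scaled to 10000 UMIs and clustered (Leiden, scanpy 1.11.5, 3000 variable genes without the members, 30 components, resolution 0.3). Clusters were named from markers by a rule set with earlier results known, and shares were not compared.

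UMIs were summed per library and cell group and tested with the edgeR 4.0.16 quasi-likelihood test (TMM, filterByExpr, R 4.3.3), p-values being adjusted by the Benjamini-Hochberg method across each table at a threshold of 0.05. Within-library comparisons had the library as a block. DESeq2 1.42.0 was an alternative. p-values measure the spread between these libraries only. On simulated data the share of false calls was above the nominal threshold in both comparisons tried, cycling against non-cycling cells and KO against WT, and small folds were mostly missed. The members, gene lists, tests and rules were chosen with earlier results of these data known. All 10 members were named in each main comparison, and from the lists at most 4 called genes by smallest p, plus *Mtf2*, *Hdac2*, *Kdm6a*, *Kdm6b* and the reported targets. *Myh4*, a reported target, was below the filter.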

Additional observations from a re-analysis of the deposited data

Results flagged for a closer look

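The cycling difference was unequal between myogenic-like and FAP-like cells for *Ezh2* and *Jarid2*, by the interaction term of the edgeR fit. That test called 26.8% of 15642 genes. *Ezh2* differed by 0.37 on the log2 scale more in myogenic-like cells (edgeR adjusted p = 0.000235), and the fold was above 1 in 4 of 4 libraries in both lineages. *Phf19* passed the filter on low counts only through cycling cells, and its non-cycling myogenic-like sums held 28 UMIs over the 4 libraries. Its fitted value of 1.13 is a description and not a test result. The fitted value of *Phf19* was 0.67 under the *Mki67* and *Top2a* rule. *Jarid2* differed by -0.23, a deeper fall in myogenic-like cells (edgeR adjusted p = 0.0196), but the call was lost with RLE factors (edgeR adjusted p = 0.0616), without a low-count filter (edgeR adjusted p = 0.112), with DESeq2 (adjusted p = 0.103), without KO replicate 1 (edgeR adjusted p = 0.0722) and without WT replicate 2 (-0.09, edgeR adjusted p = 0.508). The part of the myoblast-like cells among the non-cycling myogenic-like cells in the *Ezh2* and *Jarid2* values was not tested.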

How the results depend on the processing

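Only KO replicate 2 carried *Xist*, so sex was not balanced between the genotypes, and with 2 libraries a group a KO difference smaller than the intervals given was not detectable. Classes, stages and cycle states rest on other genes of the same cells. The 10 values for cycling against non-cycling myogenic-like cells (*Phf19* as a description) and the 10 between classes kept their direction and threshold in every alternative run (140 of 140 values each), as did 132 of 140 in FAP-like cells, the other 8 being *Aebp2*. None of the member values of KO against WT that were recomputed passed the test under any alternative. The cause of the shifts below was not tested.

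Genes called for KO against WT went from 0 to 2 (DESeq2) in myogenic-like and to 7 (DESeq2) in FAP-like cells, from 0 to 1 in cycling cells (DESeq2, the *Mki67* and *Top2a* rule, and cells near the cut left out), from 0 to 4 in non-cycling cells (near the cut left out, and thinned), from 0 to 21 in progenitor-like cells (no low-count filter), and from 0 to 28 (no filter), 4 (looser cell filter) and 5 (resolution 1) in myoblast-like cells. In the other classes 28 became 523 (no filter), 45 (DESeq2), 11 (Scrublet) and 8 (looser). The myogenic minus FAP difference of KO effects went from 3 to 48 (no filter), 5 (DESeq2) and 0 (Scrublet, looser, and no library block), and cycling minus non-cycling from 5 to 22 (no filter), 2 (Scrublet), 9 (thinned) and 0 (no library block). DESeq2 called 5144 in place of 7753 genes in cycling myogenic-like cells and 2706 in place of 5027 between G2M- and S-leaning cells, and the looser filter 4043 in place of 2515 in myotube-like cells.

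Leaving out 1 library gave 0 to 7 genes in FAP-like cells (7 without KO replicate 1), 0 to 285 in cycling cells (285 without KO replicate 1), 3 to 178 in non-cycling cells (178 without KO replicate 1), 0 to 93 in progenitor-like cells (93 without KO replicate 1), 2 to 24 in myoblast-like cells, 389 to 504 in the other classes, 0 to 4 for myogenic minus FAP and 4 to 34 for cycling minus non-cycling.

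The replicate numbers share only a number: same-numbered libraries deviated together with correlations of 0.22 in myogenic-like, 0.294 in FAP-like and 0.341 in all cells, and the labels give no shared batch. With the replicate block the calls were 9 in myogenic-like, 10 in cycling, 54 in non-cycling and 4 in progenitor-like cells and 280 in the other classes, and the member values recomputed with it stayed on their side of the threshold.

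Some directions turned. For KO against WT *Suz12* was 0.00 in myogenic-like cells without a filter, *Ezh2* in cycling cells was 0.01 (no filter, and thinned), 0.02 (*Mki67* and *Top2a*) and 0.00 (Scrublet, and near the cut left out), 0.05 in myoblast-like cells (resolution 1), and -0.01 (looser) and -0.02 (resolution 1) for myogenic minus FAP. Between G2M- and S-leaning cells *Ezh1* was 0.01 (Scrublet), 0.03 (looser), 0.25 (*Mki67* and *Top2a*) and 0.15 (near the cut left out), and *Aebp2* 0.00 (no filter), -0.03 (looser), -0.04 (*Mki67* and *Top2a*), -0.07 (near the cut left out) and -0.01 (no library block). *Rbbp4* in myoblast-like cells was 0.04 (resolution 1, and stages per cell) and 0.05 (near the cut left out). In myotube-like cells *Jarid2*, called at -0.95, was 0.11 and *Rbbp4* -0.13 (resolution 1), and *Rbbp4* -0.15 (no filter). The *Jarid2* difference between lineages lost its call with RLE factors (-0.19), no filter (-0.18), DESeq2 (-0.19), and without KO replicate 1 (-0.23, edgeR adjusted p = 0.0722).

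With 1 library left out, log2 values of KO against WT that turned ranged in myogenic-like cells from -0.35 to 0.00 for *Ezh1*, -0.01 to 0.1 for *Eed*, -0.05 to 0.03 for *Suz12*, -0.01 to 0.15 for *Rbbp7* and *Hdac1*, and -0.02 to 0.03 for *Aebp2*. In FAP-like cells they ranged from -0.22 to 0.08 for *Ezh1* and -0.06 to 0.2 for *Ezh2*, in cycling cells from -0.08 to 0.08 for *Ezh2* and -0.1 to 0.32 for *Phf19*, in progenitor-like cells from -0.48 to 0.03 for *Ezh1*, and in myoblast-like cells from -0.16 to 0.11 for *Ezh2* and -0.21 to 0.34 for *Eed*. For myogenic minus FAP they ranged from -0.15 to 0.16 for *Ezh2* and -0.14 to 0.27 for *Phf19*, and for cycling minus non-cycling from -0.2 to 0.51 for *Ezh1*. Between G2M- and S-leaning cells ranges were -0.11 to 0.09 for *Ezh1*, -0.04 to 0.03 for *Aebp2* and -0.04 to 0.01 for *Hdac1*, and for *Rbbp4* in myoblast-like cells -0.04 to 0.01.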
